A study of Mus musculus with 12 samples.

Results

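The cathepsins described here are 8 genes of proteases that work in lysosomes, Ctsa, Ctsb, Ctsc, Ctsd, Ctsh, Ctsk, Ctsl and Ctss. Their members were all probe sets on the array whose annotated gene symbol, or an older synonym of it, is one of these 8 names, which gave 13 of the 12488 probe sets. These stand for 8 of 8251 genes that the array's probe sets with 1 symbol name. Transcript levels came from 12 Affymetrix arrays of 4 lines of mouse embryonic fibroblasts, with 3 arrays per line. All 4 lines carried the KSR1-/- genotype on a DBA background strain, and all 4 expressed green fluorescent protein (GFP). One line expressed re-introduced KSR1 together with H-RasV12, a permanently active mutant of the small GTPase H-Ras, and is called the double line. Another expressed KSR1, another H-RasV12, and the last, called the GFP line, expressed neither. KSR1 is a scaffold protein that brings the kinases Raf, MEK and ERK together. Each condition was 1 cell line, and nothing in the labels says that the 3 arrays of a line came from separate cultures, so p-values here measure only the spread between these arrays, which may be technical.

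Cathepsins are made as inactive precursors, tagged with mannose 6-phosphate, carried to the lysosome by receptors that bind the tag, and activated there by the acid pH and by other proteases. Most members are cysteine proteases, whereas Ctsd is an aspartic protease and Ctsa a serine carboxypeptidase. Cystatins and some serpins inhibit the cysteine proteases among them when these leak into the cytosol or are secreted. In fibroblasts a secreted fraction of cathepsins can cut collagen and other matrix proteins.

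Many genes of lysosomal enzymes carry the letters CACGTG, the core of an element bound by TFEB, TFE3, MITF and USF factors, close to their start. The RefSeq promoter table of the GRCm38.p6 build held 6 of the 8 members, Ctsa with 2 annotated starts. Within 250 bases before a start, CACGTG, which reads the same on both strands, occurred in Ctsa, Ctsd and Ctsl, 3 of these 6 genes, against 6.86% of the 27025 genes in the table (6.02% of its 32851 windows). The longer form GTCACGTG, searched on both strands and overlapping the core, occurred in Ctsa and Ctsd, against 2.11% of genes. Neither CACATG, the core of the element that MITF also binds (13.8% of genes), nor TGACTCA, the AP-1 element (5.16% of genes), occurred in any of the 6 on either strand. A match is a description of letters and not of a bound site. The windows of the 3 genes with a match are printed because they show where the letters lie, and that of Ctsk because this gene had the widest range of signals. Capitals mark CACGTG. The Ctsa match ended near its second annotated start, 12 bases before it at its first letter. Those of Ctsd began 98 and 245 bases before the start, and that of Ctsl 236 bases before. The windows are chr2:164833523-164833772 on the plus strand for Ctsa, chr7:142387828-142388077 on the minus strand for Ctsd, chr13:64370521-64370770 on the minus strand for Ctsl, and chr3:95498960-95499209 on the plus strand for Ctsk.
Ctsa: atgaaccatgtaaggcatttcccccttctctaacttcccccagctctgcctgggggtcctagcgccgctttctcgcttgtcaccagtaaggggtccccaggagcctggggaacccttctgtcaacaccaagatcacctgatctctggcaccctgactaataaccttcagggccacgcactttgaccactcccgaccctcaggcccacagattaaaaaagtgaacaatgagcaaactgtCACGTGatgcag
Ctsd: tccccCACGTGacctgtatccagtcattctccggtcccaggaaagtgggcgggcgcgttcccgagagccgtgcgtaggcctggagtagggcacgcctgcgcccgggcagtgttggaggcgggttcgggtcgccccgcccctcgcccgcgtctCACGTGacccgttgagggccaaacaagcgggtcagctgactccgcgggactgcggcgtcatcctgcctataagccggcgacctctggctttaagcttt
Ctsl: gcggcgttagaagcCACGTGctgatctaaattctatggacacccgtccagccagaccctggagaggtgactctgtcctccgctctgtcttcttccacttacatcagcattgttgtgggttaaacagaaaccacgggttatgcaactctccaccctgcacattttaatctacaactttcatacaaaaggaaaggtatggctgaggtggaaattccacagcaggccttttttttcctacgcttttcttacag
Ctsk: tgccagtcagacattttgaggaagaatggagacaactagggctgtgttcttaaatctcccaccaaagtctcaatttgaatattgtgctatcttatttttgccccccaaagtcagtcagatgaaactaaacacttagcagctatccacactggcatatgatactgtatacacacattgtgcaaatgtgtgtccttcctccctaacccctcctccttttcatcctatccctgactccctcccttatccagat

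Of the 13 cathepsin probe sets, 7 passed the filter on dim signals, which asked for a signal above 181.4 on at least 3 arrays. These were 3 probe sets of Ctsb and 1 each of Ctsa, Ctsd, Ctsk and Ctsl. The Ctsb probe set 92256_at and Ctsk met the filter only with the double-line arrays, where their signals were high. The former exceeded it on those 3 arrays alone, and Ctsk on those 3, KSR1 replicate 1 and GFP replicate 1. The remaining Ctsb probe set, all 3 of Ctsc, and those of Ctsh and Ctss stayed below it on all 12 arrays. Ctsk was chosen by its signals in these data, since an earlier description of them had named it among the strong rises in the double line over the KSR1 line. By which values the other 7 genes were chosen is not recorded. For that reason the members' values in comparisons that hold the double line are descriptions with no test, and p-values are given only for the KSR1 line and the H-RasV12 line against the GFP line. Counts of the members' calls in comparisons that hold the double line are listed as descriptions too, and nothing is read from them. The KSR1 arrays were part of the comparison that listed Ctsk, and may have been so for the other genes. The members' p-values for the KSR1 line against the GFP line are therefore descriptive too.

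Markers and controls were checked across the 4 lines. One probe set of Ksr1 (92765_s_at) had 301, 262 and 141 in the double line, 933, 1605 and 207 in the KSR1 line, 20.2, 32.2 and 14.2 in the H-RasV12 line, and 144, 21.1 and 37.5 in the GFP line, whereas the other (92764_at) lay between 180.2 and 366 on all 12 arrays. In 92765_s_at the double line and the KSR1 line overlapped, with a log2 fold change of -1.52 ± 0.62 (SE, limma adjusted p 0.124). The double line also overlapped the GFP line, at 1.70 ± 0.62 (limma adjusted p 0.0835). It lay above the H-RasV12 line without overlap, at 2.47 ± 0.62 (limma adjusted p 0.0136), as the KSR1 line did above the GFP line, at 3.22 ± 0.62 (limma adjusted p 0.00309). Of the 13 leukocyte markers 9 did not pass the filter, among them Ptprc, Adgre1, Itgam and Lyz2, which averaged at most 25.4 in any line. Csf1r, the receptor of macrophage colony-stimulating factor, did not pass it either, but had 567 in KSR1 replicate 1 and 541 in GFP replicate 1. Nor did Fcgr1, which averaged 116 in the double line, 201 in the KSR1 line, 110 in the H-RasV12 line and 173 in the GFP line. Laptm5 passed, with means of 265, 308, 279 and 228 in the same lines. Cd14 averaged 1441 ± 135 in the double line, 2250 ± 687 in the KSR1 line, 1200 ± 114 in the H-RasV12 line and 1126 ± 210 in the GFP line, and Cd53 88.3 ± 140 in the double line, 344 ± 276 in the KSR1 line, 53.9 ± 33.4 in the H-RasV12 line and 41.6 ± 30.9 in the GFP line (SD, n = 3). Over the 13 markers the list's summed signal was 5314 to 7497 in the double line, 2742 to 5439 in the KSR1 line, 1861 to 2350 in the H-RasV12 line and 1776 to 2942 in the GFP line. Cd68, a lysosomal membrane glycoprotein used as a macrophage marker, made up most of the double line's sum with a mean of 4012 ± 1023, against 150.1 ± 10.6 in the KSR1 line (SD, n = 3). The 5 osteoclast markers summed to 210 to 307 in the double line, 210 to 509 in the KSR1 line, 244 to 306 in the H-RasV12 line and 187 to 381 in the GFP line, with 4 of the 5 below the filter. The 5 epithelial markers summed to 1662 to 2070 in the double line, 866 to 1536 in the KSR1 line, 546 to 799 in the H-RasV12 line and 622 to 952 in the GFP line. Of these markers Krt19 was called higher in the double line against each of the other lines, and in the KSR1 line against the GFP line. Epcam, Krt8 and Krt18 did not pass the filter. Cdh1 averaged 595 ± 191 in the double line, 758 ± 233 in the KSR1 line, 525 ± 106 in the H-RasV12 line and 580 ± 122 in the GFP line (SD, n = 3) and was not called. Fibroblast markers summed to 11081 to 17616 in the double line, 19261 to 20881 in the KSR1 line, 30960 to 41566 in the H-RasV12 line and 31846 to 43902 in the GFP line, and the probe sets of Vim and Thy1 were dim in all lines. Col1a1 and Col1a2 made up most of these sums. In the double line and the GFP line Pdgfra averaged 1517 ± 294 and 1433 ± 353, P4hb 1877 ± 229 and 1830 ± 300, and Fn1 1885 ± 411 and 2131 ± 258 (SD, n = 3). Pdgfrb was lower in the double line, at 32.9 ± 26.3 against 449 ± 79.4 in the GFP line. GFP replicate 1 and double-line replicate 1 had beta-actin 3' signals of 7981 and 8629, against 16680 to 26873 on the other arrays. The part of these markers and controls in the members' values was not tested.

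Ctsk, the cysteine protease that osteoclasts use to dissolve bone collagen, had by far the widest range of signals of the 5 genes above the filter. Its signals were 3828, 4753 and 4303 in the double line, 512, 124 and 129.6 in the KSR1 line, 128, 127 and 91.1 in the H-RasV12 line, and 319.5, 56.7 and 87.0 in the GFP line. The 3 double-line arrays stood far above all others, and the other 3 lines overlapped. The means were 4295 ± 462 in the double line and 255 ± 223 in the KSR1 line (SD, n = 3), a ratio of 16.8 and a log2 fold change of 4.23 ± 0.50 (SE). Against the H-RasV12 line, with 115 ± 21.0, the log2 fold change was 4.97 ± 0.50, and against the GFP line, with 154 ± 144, it was 4.90 ± 0.50. KSR1 replicate 1 and GFP replicate 1 were the highest arrays of their lines for Ctsk. Of the 5 osteoclast markers, KSR1 replicate 1 was the highest of its line for 4 and GFP replicate 1 for 2, and of the 13 leukocyte markers they were so for 10 and 9. These 2 arrays also had the highest median signals of all 12, 216 and 204, against 160.6 to 192.0 on the other arrays. How often they were the highest of their line over all probe sets was not counted. The part of these markers and of the array medians in the signals of Ctsk was not tested. Over the 21 alternative settings that kept Ctsk, its log2 fold change in the double line over the KSR1 line ran from 3.91 to 4.92. In such bulk samples fewer cells that make a transcript and less of it per cell cannot be told apart.

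**Figure D1:**
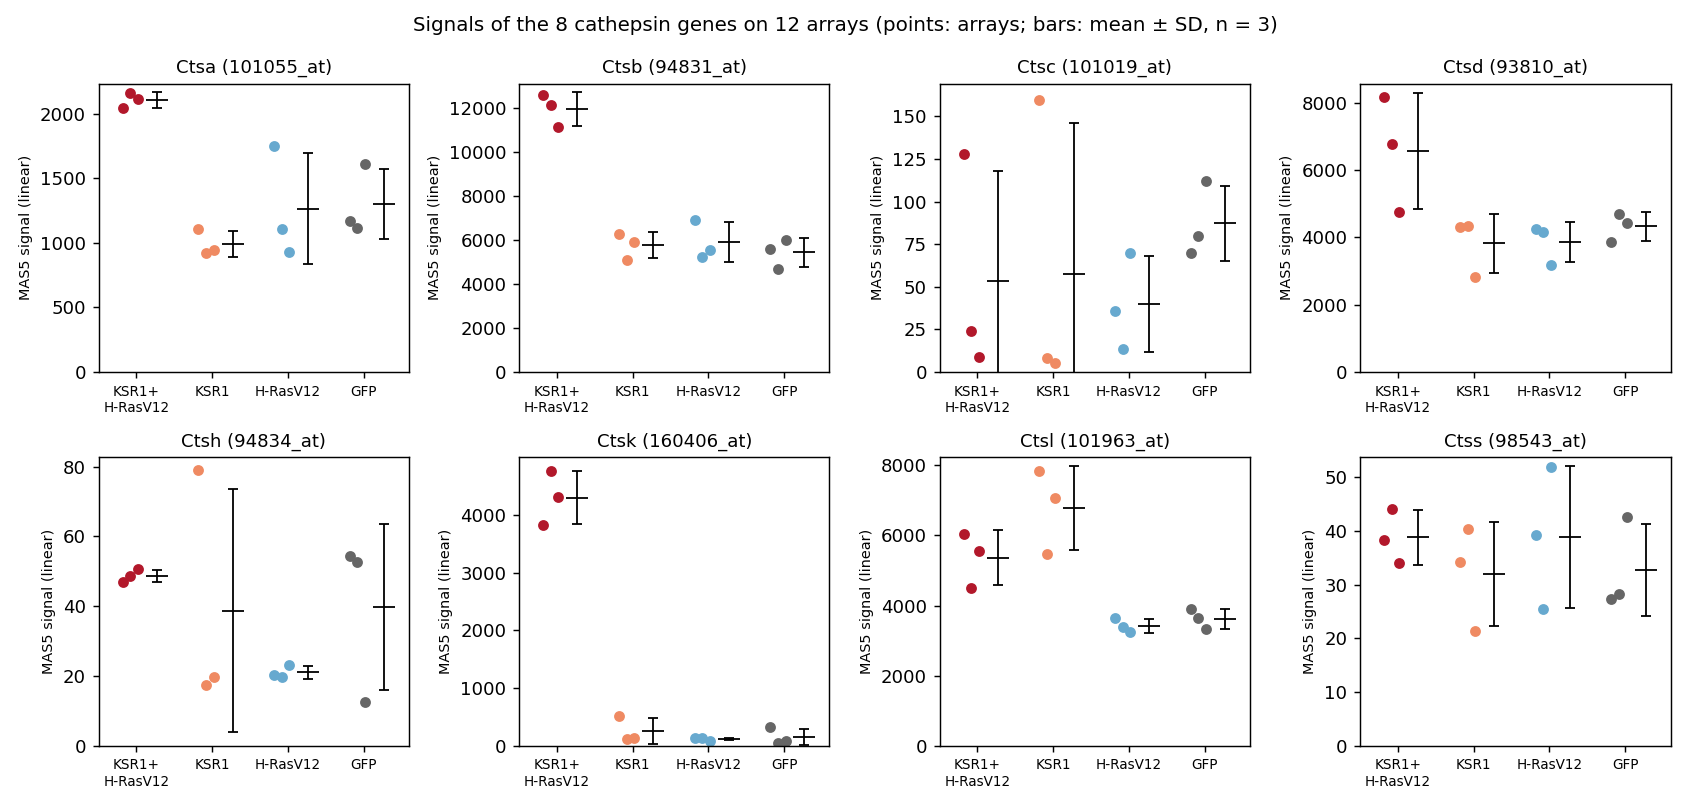
MAS5 signals (linear axis from 0) of the brightest probe set of each of the 8 cathepsin genes, by line, with the double line leftmost and the GFP line rightmost. Points are arrays in replicate order and the bar beside them is the mean ± SD of 3 arrays. Ctsk lies between 3828 and 4753 in the double line and at or below 512 elsewhere, Ctsl is high in both lines with KSR1, and Ctsc, Ctsh and Ctss stay below 160 throughout.

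None of the 4 tested neighbours of Ctsk on chromosome 3 was called in the double line against the KSR1 line. Limma called 15.1% of all tested probe sets there, so with 4 genes nothing is read from this count. In the order of the annotation Ctsk lies between Arnt, which encodes a partner of hypoxia-inducible factors, and Ctss. Arnt averaged 307 ± 123 in the double line and 376 ± 63.8 in the KSR1 line, and Setdb1, a histone methyltransferase gene, 757 ± 149.6 in the double line and 938 ± 139 in the KSR1 line (SD, n = 3). With Golph3l and Ensa, the 4 log2 fold changes lay between -0.34 ± 0.28 for Arnt and 0.03 ± 0.32 for Ensa (SE), with limma adjusted p from 0.479 to 0.960, and the arrays of both lines overlapped for each.

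Ctsb, a cysteine protease that cuts both within chains and at their ends, was read by 4 probe sets, and the 3 above the filter gave the same order for the double line. The brightest, 94831_at, had 12597, 12101 and 11110 in the double line, 6272, 5104 and 5890 in the KSR1 line, 6912, 5214 and 5536 in the H-RasV12 line, and 5593, 4696 and 6001 in the GFP line. All 3 double-line arrays lay above the other 9, which overlapped among themselves. The log2 fold change was 1.05 ± 0.17 against the KSR1 line, 1.03 ± 0.17 against the H-RasV12 line and 1.14 ± 0.17 against the GFP line (SE), and the mean signal was 2.07, 2.03 and 2.20 times theirs.

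The probe set 95608_at averaged 822 ± 62.4 in the double line, 287 ± 111 in the KSR1 line, 289.9 ± 64.2 in the H-RasV12 line and 364 ± 69.4 in the GFP line (SD, n = 3). Its log2 fold change was 1.50 ± 0.25 for the double line against the KSR1 line. The probe set 92256_at had 329, 292 and 311 in the double line, 81.0, 69.0 and 96.8 in the KSR1 line, 147, 107 and 144 in the H-RasV12 line, and 149.8, 156 and 168 in the GFP line. Here the KSR1 line lay below all the others, and the log2 fold change of the double line against it was 1.67 ± 0.24, while it was 0.88 ± 0.24 against the GFP line. The remaining one, 162271_f_at, stayed between 12.5 and 97.8. Of the 3 brighter probe sets only 92256_at separated the KSR1 line from the GFP line without overlap.

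**Figure D2:**
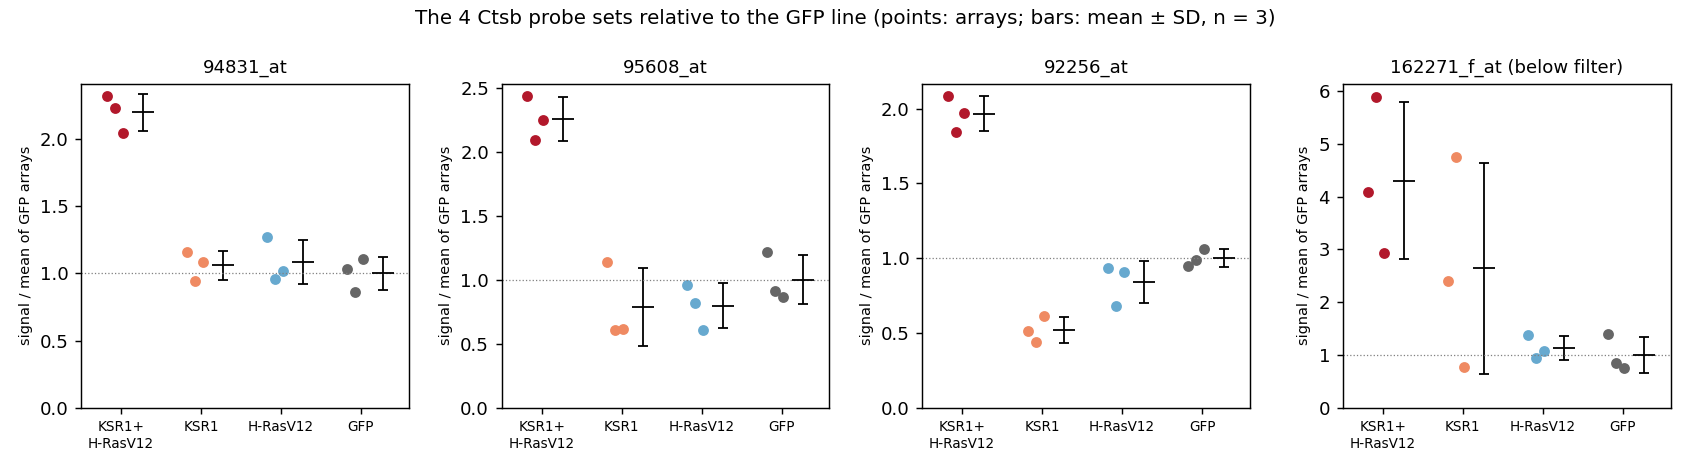
Signals of the 4 Ctsb probe sets divided by the mean of the 3 GFP arrays (linear axis from 0), by line, with points for arrays and bars for the mean ± SD of 3 arrays. The dotted line at 1 is the GFP mean. In the 3 probe sets above the filter the double line lies near 2 while the other lines lie near or below 1, and in 92256_at the KSR1 line lies lowest.

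Ctsa, the serine carboxypeptidase that also shields beta-galactosidase and neuraminidase in the lysosome, had 2042, 2164 and 2112 in the double line, 1110, 919 and 947 in the KSR1 line, 1752, 1111 and 931 in the H-RasV12 line, and 1171, 1116 and 1613 in the GFP line. The double line varied least and stood above every other array. Its log2 fold change was 1.07 ± 0.22 against the KSR1 line, 0.78 ± 0.22 against the H-RasV12 line and 0.71 ± 0.22 against the GFP line (SE).

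Ctsd, the main aspartic protease of the lysosome, had 8181, 6761 and 4738 in the double line, 4310, 4344 and 2816 in the KSR1 line, 4258, 4162 and 3171 in the H-RasV12 line, and 3863, 4704 and 4431 in the GFP line. The lowest double-line array, 4738, was just above the highest of the other lines, 4704 in GFP. The log2 fold change of the double line was 0.77 ± 0.23 against the KSR1 line, 0.74 ± 0.23 against the H-RasV12 line and 0.57 ± 0.23 against the GFP line (SE), the smallest of the 4 genes above the filter that were highest in the double line.

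Ctsl, a cysteine endopeptidase whose precursor is well known as a protein that transformed mouse fibroblasts secrete, had a different order. It had 6031, 4509 and 5560 in the double line, 7822, 5462 and 7061 in the KSR1 line, 3636, 3389 and 3244 in the H-RasV12 line, and 3887, 3645 and 3330 in the GFP line. Both lines with KSR1 lay above both lines without it, and within each of these pairs the arrays overlapped. The log2 fold change of the double line was -0.33 ± 0.18 against the KSR1 line, 0.64 ± 0.18 against the H-RasV12 line and 0.56 ± 0.18 against the GFP line (SE).

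Counted over the 7 probe sets above the filter, 6 were called higher in the double line than in the KSR1 line at an adjusted p under 0.05, where limma called 15.1% of all 6897 tested probe sets and 8.16% in that direction. Against the H-RasV12 line 7 of 7 were called higher, beside 14.8% called and 7.1% higher over the whole table. This count was 4 without H-RasV12 replicate 2 or replicate 3. Against the GFP line 6 of 7 were called higher, all but Ctsd, beside 15.6% called and 7.71% higher, and the count was 3 without GFP replicate 1, GFP replicate 2 or double-line replicate 1. These 3 comparisons share the double-line arrays and hold the values with which Ctsk was listed, so nothing is read from the counts. The median log2 fold changes of the 7 probe sets were 1.07, 1.03 and 0.88 in these 3 comparisons, beside -0.07, -0.05 and -0.02 over all tested probe sets.

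**Figure D3:**
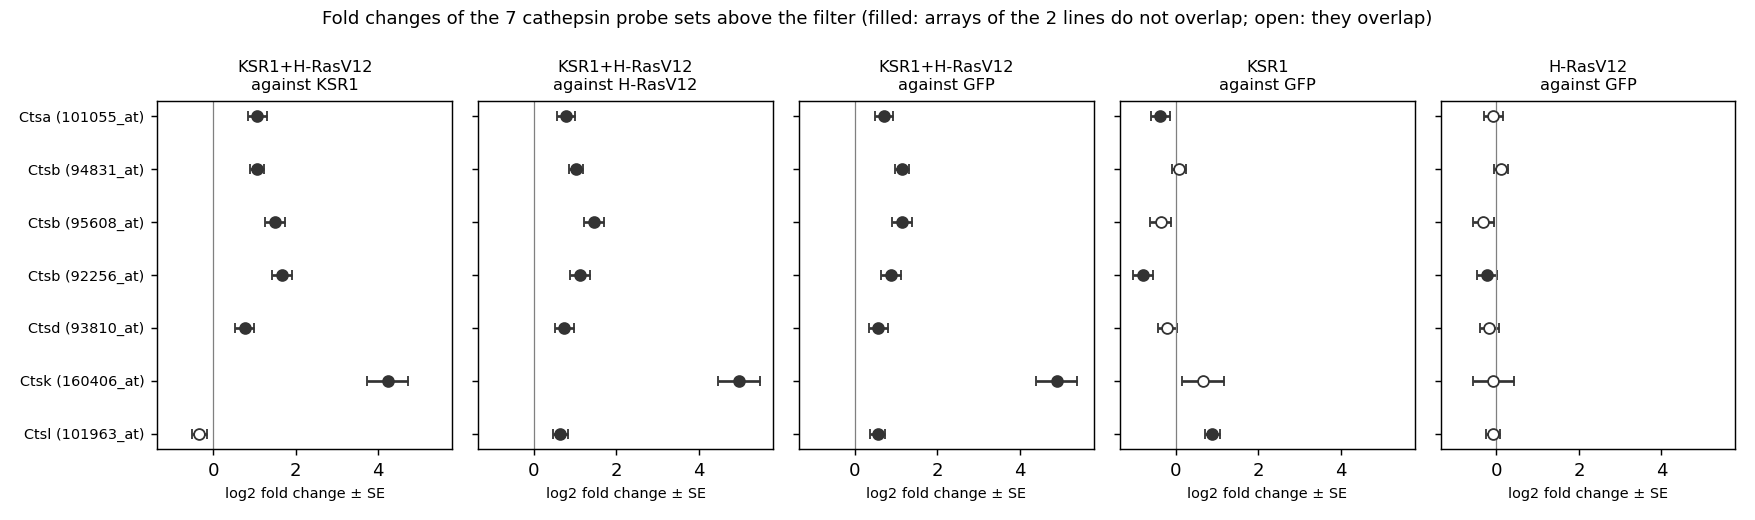
Log2 fold changes ± SE from limma of the 7 cathepsin probe sets above the filter (rows) in 5 comparisons (panels), all on the same linear log2 axis. A filled point means that the 3 arrays of both lines do not overlap and an open one that they do. Ctsk lies between 4.23 and 4.97 in the 3 panels with the double line, Ctsl at 0.89 in the KSR1 line against the GFP line, and all 7 near 0 in the H-RasV12 line against the GFP line.

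The KSR1 line against the GFP line asks what re-introduced KSR1 did without oncogenic Ras. Its arrays may have served in choosing the members, so the members' p-values here are descriptive. Ctsl rose, with a log2 fold change of 0.89 ± 0.18 (SE, limma adjusted p 0.00411), and its signal averaged 6782 ± 1205 in the KSR1 line against 3621 ± 279 in the GFP line (SD, n = 3), a ratio of 1.87. All 3 KSR1 arrays were higher, and the call held in 22 of 22 alternative settings, in which the log2 fold change ran from 0.78 to 1.04. In the same comparison the leukocyte marker Cd14 was called higher, by 0.96 ± 0.21 (limma adjusted p 0.00816), and the epithelial marker Krt19 by 1.54 ± 0.31 (limma adjusted p 0.00433), both in 22 of 22 settings, and their part in the Ctsl signal was not tested. The Ctsb probe set 92256_at fell, with a log2 fold change of -0.79 ± 0.24 (limma adjusted p 0.0461), but this call was lost without any 1 of the 12 arrays (log2 fold change -0.70 to -0.89, limma adjusted p 0.0514 to 0.154). The brighter Ctsb probe sets had log2 fold changes of 0.09 ± 0.17 (limma adjusted p 0.814) and -0.36 ± 0.25 (limma adjusted p 0.414), so the 3 did not show a common direction. Ctsa had -0.37 ± 0.22 (limma adjusted p 0.338), although all 3 of its KSR1 arrays were lower, Ctsd -0.20 ± 0.23 (limma adjusted p 0.645) and Ctsk 0.67 ± 0.50 (limma adjusted p 0.457). In all, 2 of 7 probe sets were called, 1 in each direction, beside 11.8% called over the whole table (4.97% higher and 6.81% lower).

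The H-RasV12 line against the GFP line asks what oncogenic Ras did without KSR1. None of the 7 probe sets was called, and 0 had an unadjusted p under 0.05 in limma, beside 0.0725% of all tested probe sets called, which were 5, and 411 with an unadjusted p under 0.05. The log2 fold changes were -0.07 ± 0.22 for Ctsa, 0.11 ± 0.17, -0.31 ± 0.25 and -0.23 ± 0.24 for the Ctsb probe sets 94831_at, 95608_at and 92256_at, -0.17 ± 0.23 for Ctsd, -0.07 ± 0.50 for Ctsk and -0.08 ± 0.18 for Ctsl (SE), each with a limma adjusted p of 1.00. For 92256_at all 3 H-RasV12 arrays were lower than the GFP arrays. The SE of Ctsk leaves a wider range than those of the others, and its sign turned without GFP replicate 1, when it was 0.55, and without H-RasV12 replicate 3, when it was 0.06.

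The difference between the H-RasV12 response with KSR1 and that without it was 4.30 ± 0.71 on the log2 scale for Ctsk, 1.14 ± 0.31 for Ctsa, and 0.94 ± 0.24, 1.81 ± 0.35 and 1.90 ± 0.34 for the Ctsb probe sets from brightest to dimmest. It was 0.94 ± 0.32 for Ctsd and -0.25 ± 0.25 for Ctsl. At an adjusted p under 0.05 the count was 5 of 7, beside 7.7% of all tested probe sets called and 4.16% called higher, and it was 3 without GFP replicate 3, H-RasV12 replicate 2 or 3, KSR1 replicate 2, or double-line replicate 2. This difference also holds the double-line values with which Ctsk was listed and without which neither Ctsk nor 92256_at would have met the filter. It is therefore a description, and nothing is read from the count.

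The other 3 members were dim. Ctsc, the dipeptidyl peptidase that activates granule proteases of leukocytes, ranged from 5.09 to 159.8 in its brightest probe set, with both ends of that range in the KSR1 line. Ctsh, an aminopeptidase, had 47.0, 48.7 and 50.5 in the double line, 78.9, 17.3 and 19.8 in the KSR1 line, 20.4, 19.7 and 23.1 in the H-RasV12 line, and 54.3, 52.7 and 12.5 in the GFP line. Ctss, which trims the invariant chain of MHC class II in antigen-presenting cells, ranged from 21.4 to 51.9. In the brightest probe set of each of the 3 genes, neighbouring lines in the order of their means overlapped. For Ctsh the highest line, the double line, lay above the lowest, the H-RasV12 line, without overlap, at 2.31 times its mean. Signals this close to the background of the array do not show that a transcript was absent.

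For each gene above the filter, the 3 other genes whose log2 signals followed it most closely over the 12 arrays were taken from 6242 candidate probe sets by Pearson correlation. The points share 4 lines, so a correlation mostly restates the order of lines, and it is given as a description. Ctsk was followed by Plekho1 (0.986), Rhox5 (0.983) and Wdr92 (0.976), Ctsb by S100a1 (0.961), Zfand2a (0.958) and Mrps36 (0.946), and Ctsa by Slc12a7 (0.971), Wbp1l (0.934) and Elovl6 (0.931). Ctsd had Vegfb (0.941), Renbp (0.904) and Cndp2 (0.902). For Ctsl they were Mrpl28 (0.946), the chemokine gene Ccl2 (0.945) and the gap junction gene Gja1 (0.943). The 15 genes named for the 5 members were all different.

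On the array were 6 other cathepsin genes, and 2 of them, Ctse and Ctsz, passed the filter. Ctsz, a cysteine carboxypeptidase, had 713, 436 and 510.1 in the double line, 532, 658 and 648 in the KSR1 line, 348, 329 and 354 in the H-RasV12 line, and 452, 333 and 413 in the GFP line. Its order of lines was that of Ctsl, but it was not called, with a log2 fold change of 0.59 ± 0.20 in the KSR1 line against the GFP line (SE, limma adjusted p 0.0747) and 0.63 ± 0.20 in the double line against the H-RasV12 line (limma adjusted p 0.0522). The 2 probe sets of Ctse above the filter, an aspartic protease gene, went opposite ways in the double line against the KSR1 line, at 0.95 ± 0.25 (limma adjusted p 0.0175) and -0.70 ± 0.25 (limma adjusted p 0.0747), so no direction is given for it. Ctsf, a cysteine protease below the filter, averaged 45.4 ± 30.2 in the double line, 38.4 ± 18.6 in the KSR1 line, 159.6 ± 64 in the H-RasV12 line and 171 ± 44.8 in the GFP line (SD, n = 3). In the fit without a filter its log2 fold change was -1.68 ± 0.37 in the KSR1 line against the GFP line (SE, limma adjusted p 0.0172).

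Related genes were taken from lists of lysosomal peptidases, inhibitors, sorting factors, other hydrolases, regulators and substrates, and each list is described by its counts and its median. In the double line against the KSR1 line limma called 15.1% of all tested probe sets, and 8.16% were called higher. The lists were chosen with earlier results known, so nothing is read from their counts, and the p-values of their genes are descriptive. Of 5 tested genes of other lysosomal peptidases 3 rose and none fell in the double line against the KSR1 line, with a median log2 fold change of 0.85, beside -0.07 over all tested probe sets. Lgmn, the asparaginyl endopeptidase that converts single-chain cathepsins B, H and L to their cut forms, had 1157, 1080 and 634 in the double line, 516, 241 and 297 in the KSR1 line, 263, 182 and 171 in the H-RasV12 line, and 356, 327 and 257 in the GFP line. The double line stood above the others without overlap. Its log2 fold change was 1.41 ± 0.29 against the KSR1 line (SE, limma adjusted p 0.00396), 2.08 ± 0.29 against the H-RasV12 line (limma adjusted p 0.000192) and 1.51 ± 0.29 against the GFP line (limma adjusted p 0.00227). The carboxypeptidase gene Scpep1 (1.01 ± 0.29, limma adjusted p 0.0318) and the dipeptidyl peptidase gene Dpp7 (0.85 ± 0.24, limma adjusted p 0.029) made up the count, and each call was lost without any of 4 arrays, to 0.72 (limma adjusted p 0.158) without KSR1 replicate 2 for Scpep1 and to 0.71 (limma adjusted p 0.126) for Dpp7. Those 4 were KSR1 replicates 2 and 3 and double-line replicates 2 and 3 for Scpep1, and replicates 1 and 2 of both lines for Dpp7. Dpp7 averaged 451 ± 49.8 in the double line and 242 ± 45.2 in the KSR1 line (SD, n = 3). Its means in the H-RasV12 line, 432 ± 79.8, and in the GFP line, 435 ± 134, were near that of the double line. Cpq, a plasma glutamate carboxypeptidase found in lysosomes, fell in the double line against the GFP line (-1.45 ± 0.27, limma adjusted p 0.00191) and against the H-RasV12 line (-1.20 ± 0.27, limma adjusted p 0.0073).

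Among inhibitors, 10 of 16 listed genes were on the array and 4 were tested. Cst3, the secreted inhibitor cystatin C, had the order of lines that Ctsl had, with 5797, 5187 and 3224 in the double line, 7274, 7614 and 8482 in the KSR1 line, 4298, 3305 and 3609 in the H-RasV12 line, and 3850, 4535 and 4418 in the GFP line. It rose in the KSR1 line against the GFP line by 0.87 ± 0.21 on the log2 scale (SE, limma adjusted p 0.0138), a call lost at an adjusted p of 0.0527 without KSR1 replicate 3. In the double line against the KSR1 line its log2 fold change was -0.76 ± 0.21 (limma adjusted p 0.0248), and the call was lost without KSR1 replicate 2 (0.0673), KSR1 replicate 3 (0.078) or double-line replicate 3 (0.0965, all limma adjusted p). Serpinb9, an inhibitor best known for blocking granzyme B, rose in the double line against the KSR1 line by 1.29 ± 0.25 (limma adjusted p 0.0025). Serpinb9 averaged 1124 ± 391 in the double line and 429 ± 25.4 in the KSR1 line (SD, n = 3). Its means were 724 ± 160 in the H-RasV12 line and 796 ± 209 in the GFP line, and the arrays of both overlapped those of the double line. Cstb, the cytosolic inhibitor stefin B, averaged 7414 ± 1865 in the double line and 5670 ± 665 in the KSR1 line (SD, n = 3) and was not called in any comparison. Of the 4 inhibitors, 1 rose and 1 fell in the double line against the KSR1 line, with a median of 0.24, beside 15.1% of all tested probe sets called.

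Of 6 tested sorting genes, 4 rose and none fell in the double line against the KSR1 line, with a median log2 fold change of 0.90. Over all tested probe sets 8.16% were called higher. Grn, the precursor of granulins, which reaches lysosomes and is cut there by cathepsins, had 3159, 2261 and 1962 in the double line, 914, 769 and 605 in the KSR1 line, 1964, 1259 and 1242 in the H-RasV12 line, and 939.5, 939 and 1410 in the GFP line. It rose by 1.65 ± 0.25 against the KSR1 line (SE, limma adjusted p 0.000384) and by 1.15 ± 0.25 against the GFP line (limma adjusted p 0.00538), and its double-line range overlapped that of the H-RasV12 line at 1962 and 1964. Igf2r, the large mannose 6-phosphate receptor, rose by 0.92 ± 0.16 (limma adjusted p 0.00119), Gga2, an adaptor for that receptor in the trans-Golgi, by 1.16 ± 0.22 (limma adjusted p 0.00218), and Scarb2, the receptor of glucocerebrosidase, by 0.88 ± 0.19 (limma adjusted p 0.00519), all in the double line against the KSR1 line. Igf2r averaged 1892 ± 320.0 in the double line, 979 ± 16.0 in the KSR1 line, 1581 ± 118 in the H-RasV12 line and 1459 ± 41.5 in the GFP line, and Gga2 889 ± 97.2, 388 ± 82.6, 867 ± 263 and 858 ± 128 in the same lines (SD, n = 3). For both Igf2r and Gga2 the KSR1 line was the one that stood apart, below all arrays of the other lines. Gga2 fell there by 1.11 ± 0.22 on the log2 scale against the GFP line (limma adjusted p 0.004).

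Of 13 tested glycosidases, sulfatases, lipases and other hydrolases 3 rose in the double line against the KSR1 line, none fell, and the median was 0.24. Over all tested probe sets 8.16% were called higher. Lipa, the acid lipase that frees cholesterol from its esters, had 489.6, 324 and 295 in the double line, 99.7, 59.5 and 90.8 in the KSR1 line, 183, 116 and 57.4 in the H-RasV12 line, and 142, 112 and 117 in the GFP line. It exceeded the filter only on the 3 double-line arrays and H-RasV12 replicate 1. Its log2 fold change was 1.87 ± 0.35 against the KSR1 line, 1.54 ± 0.35 against the H-RasV12 line and 1.39 ± 0.35 against the GFP line (SE). Lipa met the filter only with the double-line arrays, so these values are given with no p and its calls are not read as support. Hexa, the alpha subunit of beta-hexosaminidase, rose by 1.14 ± 0.24 (limma adjusted p 0.00448), with 1099 ± 106 in the double line and 495 ± 119 in the KSR1 line (SD, n = 3). Arsa, arylsulfatase A, completed the count at 0.91 ± 0.28 (limma adjusted p 0.0391), and its call was lost without GFP replicate 3, KSR1 replicate 1 or 3, or double-line replicate 1 or 2 (limma adjusted p 0.0517 to 0.117). Arsa averaged 704 ± 210 in the double line and 356 ± 72.7 in the KSR1 line (SD, n = 3). Its means in the H-RasV12 line, 998 ± 422, and in the GFP line, 817 ± 77.7, were above that of the double line. The partner of cathepsin A that was tested, Glb1 (beta-galactosidase), was not called, at 0.42 on the log2 scale in the double line against the KSR1 line.

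Of 3 tested regulators of lysosomal genes 1 was called, Mitf, a transcription factor of the same family as TFEB. It had 417, 2262 and 642 in the double line, 70.1, 169.9 and 144 in the KSR1 line, 61.2, 73.8 and 13.4 in the H-RasV12 line, and 51.8, 57.7 and 15.4 in the GFP line. Its log2 fold change was 2.60 ± 0.56 in the double line against the KSR1 line (SE), with 1 double-line array far above the other 2. Against the H-RasV12 line it was 3.71 ± 0.56 and against the GFP line 3.83 ± 0.56. Mitf exceeded the filter on the 3 double-line arrays alone and so was tested only through the line where it was high, for which reason these values are given with no p and its calls are not read as support. Usf1 and Usf2 were not called.

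Of 8 tested genes of substrates outside the lysosome none rose and 1 fell in the double line against the KSR1 line, with a median of 0.07, and 3 fell against the H-RasV12 line and 3 against the GFP line. Over all tested probe sets 15.1%, 14.8% and 15.6% were called in these 3 comparisons. Col1a1, the alpha 1 chain of type I collagen, had 4299, 1921 and 178 in the double line, 7550, 9357 and 8475 in the KSR1 line, 17068, 14178 and 22324 in the H-RasV12 line, and 14039, 19577 and 21962 in the GFP line. The log2 fold change in the double line was -3.94 ± 0.73 against the GFP line (SE, limma adjusted p 0.00173), and -2.83 ± 0.73 against the KSR1 line (limma adjusted p 0.0172), a call lost without KSR1 replicate 2 (limma adjusted p 0.0613). Col1a2, the alpha 2 chain, and Sparc, a collagen-binding matrix protein, fell in the double line against the GFP line, by 0.86 ± 0.18 and 1.41 ± 0.25, and also in the KSR1 line against it, by 1.27 ± 0.18 and 1.64 ± 0.25 on the log2 scale, with limma adjusted p between 0.000263 and 0.00436. Both also made up the count against the H-RasV12 line, at -0.60 ± 0.18 and -0.86 ± 0.25. Each of these calls was lost without any of the 3 H-RasV12 arrays. That of Col1a2 was also lost without GFP replicate 2, KSR1 replicate 2 or double-line replicate 3 (limma adjusted p up to 0.152), and that of Sparc without double-line replicate 2 or 3 (limma adjusted p up to 0.132).

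In the other comparisons fewer of these related genes were called. In the H-RasV12 line against the GFP line the count was 0 in each of the 8 lists of related genes, with an unadjusted p under 0.05 in limma for 1 regulator and 1 substrate. Only 0.0725% of all tested probe sets were called there. In the KSR1 line against the GFP line 1 inhibitor rose (Cst3) and 1 fell (Serpinb9), 2 sorting genes fell (Gga2 and Igf2r), 1 hydrolase fell (Arsa) and 2 substrates fell (Col1a2 and Sparc). Over all tested probe sets 4.97% were called higher there and 6.81% lower. The calls of Serpinb9, Igf2r and Arsa there were each lost without at least 2 arrays, including KSR1 replicate 3 (limma adjusted p 0.113, 0.0828 and 0.0512). In the double line against the GFP line 1 peptidase (Lgmn), 1 inhibitor (Serpinb6a), 2 sorting genes (Grn and Scarb2) and 2 hydrolases (Lipa and Hexa) rose, Mitf aside. Of these Lipa met the filter only with the double-line arrays. Over all tested probe sets 15.6% were called there and 7.71% were called higher. In that comparison 1 peptidase (Cpq), 1 hydrolase (Npc2) and 3 substrates fell. Of these the calls of Serpinb6a, Scarb2, Hexa and Npc2 were lost without GFP replicate 2 (limma adjusted p 0.0533, 0.0803, 0.0564 and 0.073) and without other arrays. In the double line against the H-RasV12 line Lgmn, Scarb2 and Lipa rose, Mitf aside, and Cpq and 3 substrates fell. Over all tested probe sets 14.8% were called there and 7.1% were called higher. The call of Scarb2 there was lost without any of 6 arrays (limma adjusted p 0.0501 to 0.13).

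**Figure D4:**
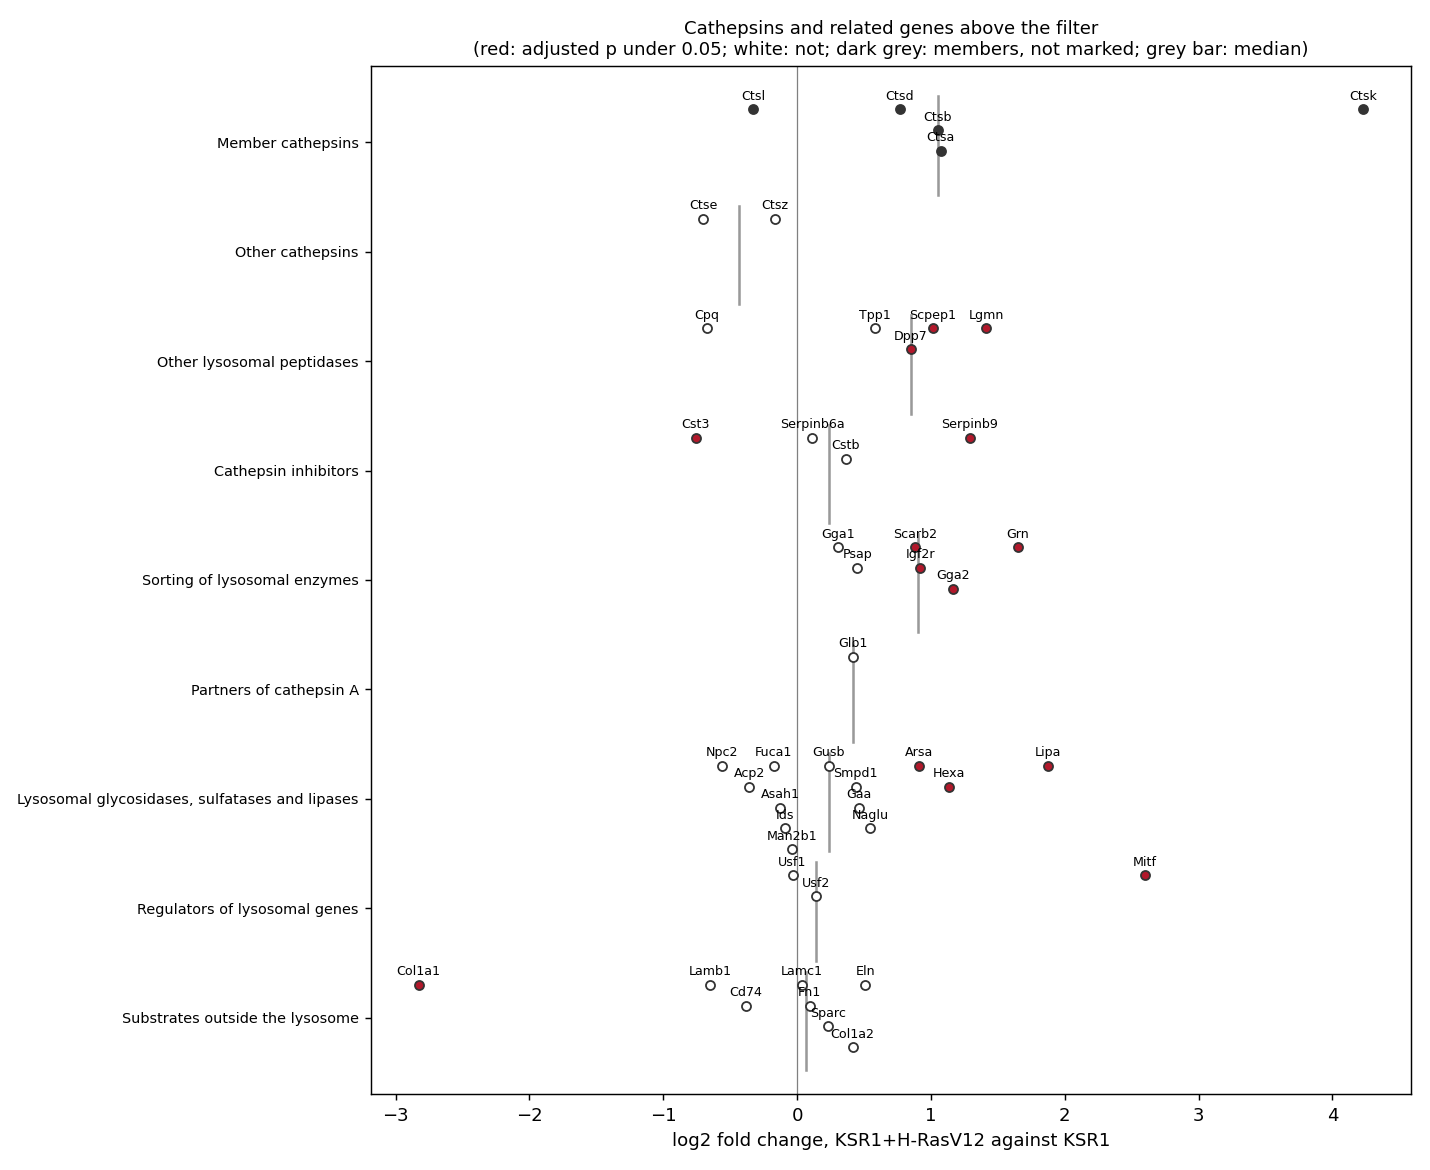
Log2 fold changes from limma in the double line against the KSR1 line (linear log2 axis) for the 5 cathepsin genes above the filter and for the related genes of each list, each gene by its brightest probe set. Red points were called at an adjusted p under 0.05, white points were not, the cathepsins are dark grey with no call shown, and the grey bar is the list's median. Among sorting genes 4 of 6 and among other lysosomal peptidases 3 of 5 are red and right of 0, and Col1a1 at -2.83 and Cst3 at -0.76 are the red points left of 0. Over all tested probe sets 15.1% were called and 8.16% were called higher. Mitf, red, exceeded the filter in the double line alone, and Lipa, red, met it only with the double-line arrays. Ctse is drawn by 1 of 2 probe sets that disagree.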

How the data were processed

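The deposited values are intensities (signals) on a linear scale made by the authors with MAS5, per the submitters' processing notes, whose version is not given in the sources used here. Their scaling brought the 2% trimmed mean of every array to 500.3, and no other scaling was added. From these values log2(signal + 23) was computed, which understates the changes of dim probe sets. The table held 12488 probe sets, 66 of them controls. Tested were the 6897 with a signal above 181.4 (the median over the table) on 3 or more of the 12 arrays. One limma fit (limma 3.58.1, R 4.3.3) with 4 group means, 8 residual degrees of freedom and an intensity trend gave two-sided p-values, adjusted by Benjamini-Hochberg over all 6897 probe sets. The fit was tested on simulated data. Symbols came from the platform annotation, updated through the gene table of GRCm38.p6, from which only names and gene order were taken. The members, the lists of related genes and the cell type markers were chosen with earlier results of these data known. The text names every member, the called genes of each list with the largest changes, all of a short list's called genes, and the 3 genes most like each member. A gene outside the members is represented by its brightest probe set with 1 symbol. Comparisons share arrays of the double line or the GFP line and are not independent. Alternatives changed the pseudocount, filter, scaling, trend, arrays, groups in the fit and replicate block. The number of arrays limits the precision.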

Additional observations from a re-analysis of the deposited data

Results flagged for a closer look

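The H-RasV12 response with KSR1 (double line against KSR1 line) minus the response without it (H-RasV12 line against GFP line) was computed for each probe set. For cathepsins it is given with no test, because Ctsk was listed with these values in view, and Ctsk and 92256_at met the filter only with the double-line arrays. It was 4.3 on the log2 scale for Ctsk, 1.14 for Ctsa, and 0.94, 1.81 and 1.9 for the Ctsb probe sets 94831_at, 95608_at and 92256_at. Among related genes past an adjusted p of 0.05 it was 1.98 for Lgmn (limma adjusted p 0.00911), 1.41 for Serpinb9 (0.0242), 1.22 for Grn (0.0477), 1.18 for Gga2 (0.0325) and 0.809 for Igf2r (0.0421). Lipa also passed, at 2.02, but it met the filter only with the double-line arrays and is given with no p. Among these related genes, calls other than that of Lgmn were lost without at least 1 array. For Lipa this was KSR1 replicate 2, and for Serpinb9, Grn, Gga2 and Igf2r 5 or more arrays did so. Of the cell type markers it was 4.5 for Cd68 (limma adjusted p 1.18e-06) and 1.93 for Krt19 (0.0147). Related genes and markers were chosen with earlier results known, so their p-values are descriptive. Lines of 3 arrays were too small for a test of single outlying arrays.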

How the results depend on the processing

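Each count of called cathepsin probe sets was recomputed under 22 alternatives at most, 12 of which left out 1 array. Counts in comparisons that hold the double line remain descriptions. For the double line against the KSR1 line the count of 6 ran from 5 to 6 without 1 array and from 4 to 6 under the other alternatives, with 4 under the filter on at least 6 arrays, which kept 5 of the 7 probe sets. For the double line against the H-RasV12 line the count of 7 ran from 4 to 7, and for the double line against the GFP line the count of 6 ran from 3 to 5 and was 3 with replicates 2 and 3 alone. For the difference in H-RasV12 response the count of 5 ran from 3 to 5 without 1 array, and was 3 with no filter and with a filter on at least 6 arrays. For the KSR1 line against the GFP line the count of 2 was 1 without any 1 array, and 1 with a pseudocount of 64, no filter, a filter on at least 6 arrays, quantile normalization, replicates 2 and 3 alone, or only the groups of the comparison in the fit. The stricter filter also removed Ctsk. The cause of these changes was not tested. Some fold changes that were not called turned sign. In the H-RasV12 line against the GFP line, Ctsk was 0.48 with replicates 2 and 3 alone and ran from -0.50 to 0.55 without 1 array (positive without H-RasV12 replicate 3, or GFP replicate 1), Ctsa ran from -0.33 to 0.12 (positive when replicate 3 of either line was left out), and Ctsb from -0.0077 to 0.19 (negative without H-RasV12 replicate 1). In the KSR1 line against the GFP line, Ctsb ran from -0.015 to 0.17 (negative without GFP replicate 2) and Ctsd from -0.31 to 0.0028 (positive without KSR1 replicate 3).

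Lines share replicate numbers, and the labels do not say that a number marks a shared batch. Deviations of same-numbered arrays correlated between -0.0206 and 0.511 over 18 pairs, and 10 of 12 arrays correlated best with an array of their own number, a hint from the data and not from the design. With a replicate block the counts of cathepsin probe sets were 6, 7 and 7 for the double line against the KSR1, H-RasV12 and GFP lines, 2 for the KSR1 line against the GFP line, 0 for the H-RasV12 line against the GFP line, and 6 for the difference in response, where Ctsd was added, as it was against the GFP line.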
